A study of Mus musculus with 12 samples.

Results

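Pro-BMPs are sorted bone marrow progenitors of this mouse study. Here their RNA was set against the midpoint of DN-GMPs and Pre-BMPs, which are called their neighbours. The gates alone do not place Pro-BMPs between them. For each of 14560 genes, the value tested was the mean log2 level of the Pro-BMP libraries minus the average of the mean log2 levels of DN-GMPs and Pre-BMPs. A gene was taken to lie outside both neighbours when all 3 Pro-BMP values were above, or all 3 were below, all 6 DN-GMP and Pre-BMP values. The comparison rests on 9 of the 12 libraries of the series, and 79 of the 14560 genes (0.543%) both passed the test and lay outside. Of these, 41 (0.282% of all genes) were higher and 38 (0.261%) were lower in Pro-BMPs.

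All cells came from the bone marrow of C57BL/6 mice, and none of the groups carried a transgene or had a treatment in the labels. Pro-BMPs were sorted, among cells lacking markers of mature B, T, erythroid and myeloid cells, as c-Kit+ Sca1- CD34+ CD16/32+ cells with E-cadherin (CDH1) and without FceRIa, a chain of the IgE receptor, on the surface. DN-GMPs had the same progenitor markers and neither CDH1 nor FceRIa. Pre-BMPs had them with FceRIa and were gated as CDH1-. Basophils, used here only for their levels and in the estimate of spread, were c-Kit- CD49b+ FceRIa+. Each population had 3 libraries. The series names 3 mice, but no label ties a library number to one of them. P-values here therefore reflect only how these libraries vary, and that variation may be technical.

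Granulocyte-monocyte progenitors give rise to neutrophils, monocytes and, along a separate branch, to basophils and mast cells. Basophils and mast cells carry the high-affinity IgE receptor and release histamine, lipid mediators and cytokines when it is engaged. A cell on such a branch usually loses the genes of the fates it leaves while it gains those of the fate it enters, so most genes of an intermediate population lie between those of its neighbours. An average of the levels of both neighbours, in any proportion, lies between them. Measured values of a few libraries can still fall outside through their spread alone.

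Levels are given in CPM, counts per 1000000 reads, here of the deposited scaled library size and without the 0.5 read that was added. Differences and tests are on the deposited log2 scale. Reads on genes came to 34195323 to 42502405 in Pro-BMP libraries, 29762981 to 36939443 in DN-GMPs, 35602065 to 37458352 in Pre-BMPs, with basophils at 38246380 to 39471460. Where a library has 0 reads of a gene, counting error alone permits as many as 3, or 0.0512 to 0.0745 CPM. A filter at 10 reads in 3 libraries left every count and adjusted p unchanged, so the deposited genes appear to meet it already. A gene read in 1 population alone is then listed only if all 3 libraries of that population have it. In these bulk samples, fewer cells of a type that uses a gene and less RNA of that gene per cell cannot be told apart.

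The sorting genes followed the gates in part. Cdh1, which encodes E-cadherin, had 56.0, 33.6 and 38.8 CPM in Pro-BMPs, against 0.0212, 0.103 and 0.149 CPM in DN-GMPs and 157, 105 and 178 CPM in Pre-BMPs. Pro-BMPs were thus far above DN-GMPs and below Pre-BMPs, whose Cdh1 RNA was the higher although their gate was CDH1-. Fcer1a, which encodes the gated receptor chain, had 0.419, 0.862 and 3.40 CPM in Pro-BMPs, with 0 in every DN-GMP library and 421 to 477 CPM in Pre-BMPs. Its level in Pro-BMPs was 0.0545% of the basophil mean of 2862 CPM. The progenitor genes Kit and Cd34 and the Fc gamma receptor genes Fcgr3 and Fcgr2b did not pass the test against the midpoint, with differences of -0.18, -0.22, 0.14 and 0.22 log2. Their adjusted p-values in limma, with Benjamini-Hochberg adjustment over all genes, were 0.902, 0.848, 0.579 and 0.422. Ly6a, the Sca1 gene, stood at 0.474 to 2.79 CPM in Pro-BMPs, and Itgam, the CD11b gene, at 2.51 to 10.1 CPM, and neither passed the test. Itgam shares 68.7% of its exon bases with another gene in the GENCODE M21 annotation, so its reads may be split.

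Against the midpoint, 203 genes (1.39% of those tested) passed an adjusted p of 0.05, of which 130 (0.893%) were higher and 73 (0.501%) lower in Pro-BMPs. The median difference over all genes was 0.0282 log2. Being outside both neighbours was more common than passing the test, with 237 genes (1.63%) above and 184 (1.26%) below, whether called or not. Both together held for 41 higher genes (0.282%) and 38 lower genes (0.261%). The total of both and the count of higher genes fell when any 1 Pro-BMP library was left out, which also leaves fewer libraries in that group. The count of lower genes did not fall without Pro-BMP replicate 3. The calls outside both neighbours were 68, 60 and 62 without Pre-BMP replicate 1, 2 or 3. They were 87, 102 and 77 without DN-GMP replicate 1, 2 or 3. Without Pro-BMP replicate 1, 2 or 3, the calls fell to 89, 107 and 126, and the calls outside both neighbours to 46, 52 and 65, of which 18, 18 and 23 were higher. Lower calls came to 33 without Pro-BMP replicate 1, 45 without Pro-BMP replicate 2 and 47 without Pre-BMP replicate 3. Of the 79 genes, 14 higher and 18 lower ones passed in every one of the 9 fits that left out a library.

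The remaining 124 called genes were not outside both neighbours. In 58 of the 89 higher ones and 15 of the 35 lower ones, the Pro-BMP mean lay between the means of the neighbours. On a log2 scale an equal mix of 2 unequal levels lies above their midpoint, so a higher call between the neighbours is not beyond a mix. Of the 130 genes called higher, 25 were below the midpoint of the CPM levels, and all 73 called lower were below it. Cdh1 is 1 of the 25: it was 3.60 ± 0.43 (SE) log2 above the log2 midpoint with an adjusted p of 0.00183 in limma, but its mean of 42.8 CPM was below the CPM midpoint, with a difference of -30.6 CPM (adjusted p 0.91). Cdh1 also lost the call with read-depth (voom) weights. The genes outside both neighbours do not have this ambiguity and are described in what follows.

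**Figure D1:**
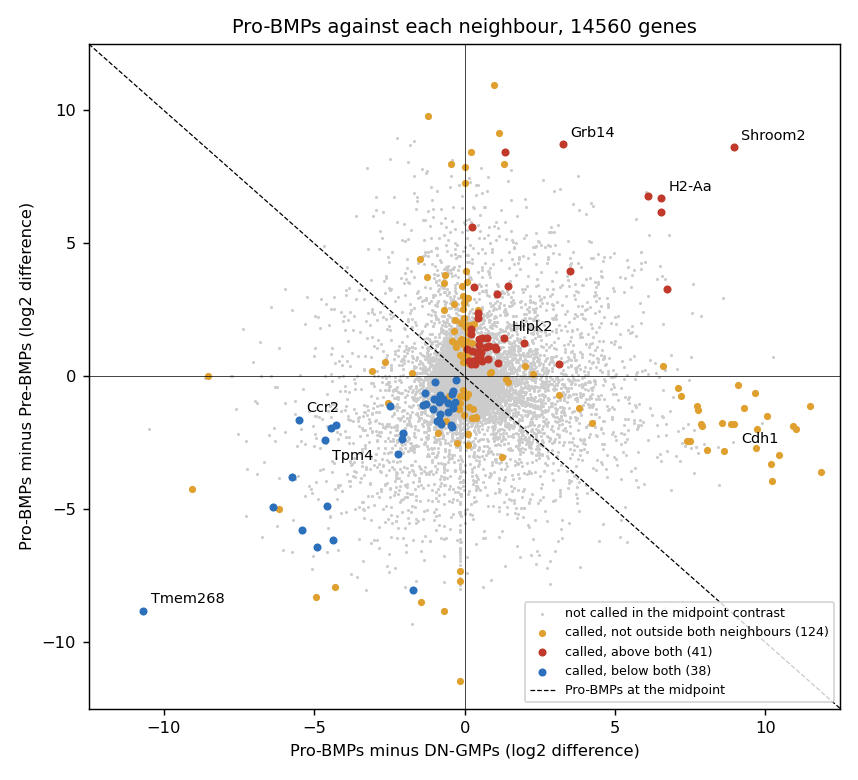
Each point is 1 of 14560 genes, with the log2 difference of Pro-BMPs from DN-GMPs on the horizontal axis and from Pre-BMPs on the vertical axis. Red points (41) are called and above both neighbours, blue points (38) are called and below both, orange points (124) are called but not outside both, and the dashed line marks genes at the log2 midpoint. Shroom2 lies farthest into the upper right and Tmem268 farthest into the lower left among the called genes outside both, while Cdh1 is far right and below 0.

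Shroom2, Hipk2 and Serpine2, the markers that came with the comparison, were all above both neighbours. Shroom2 encodes an actin-binding protein that shapes cells. It had 9.60, 4.42 and 3.96 CPM in Pro-BMPs, against 0 in all 3 DN-GMP libraries and 0, 0 and 0.0191 CPM, a single read, in Pre-BMPs. It was also at 0 in every basophil library. Shroom2 reads were thus seen almost only in Pro-BMPs, with replicate 1 higher than the others together. With a single read elsewhere, Shroom2 could be listed only through reads in all 3 Pro-BMP libraries, so their agreement is no added support. Its level in Pro-BMPs was at least 89.9-fold higher than in DN-GMPs, counting 3 reads per library where there were none. The ratio to Pre-BMPs was 900 with a 95% counting interval of 161 to 35600, since 895 reads stood against 1. The difference from the midpoint was 8.79 ± 0.91 (SE) log2 with an adjusted p of 0.000883 in limma, and the call held under every alternative tried. The size depends on the 0.5 read added to counts of 0, and was 5.71 log2 with 5 reads added.

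Hipk2 encodes a nuclear serine/threonine kinase that acts on p53 and on transcriptional corepressors. It had 112, 105 and 114 CPM in Pro-BMPs, against 35.9, 55.1 and 45.0 CPM in DN-GMPs and 42.0, 35.5 and 44.1 CPM in Pre-BMPs. The neighbours overlapped each other and stayed far below every Pro-BMP library. The difference from the midpoint was 1.38 ± 0.16 (SE) log2 with an adjusted p of 0.0015 in limma. Basophils, at 171, 137 and 120 CPM, were above all Pro-BMP libraries, so the level in Pre-BMPs was lower than in both Pro-BMPs and basophils. The related kinase genes Hipk1 and Hipk3 did not pass the test, with differences of -0.04 and -0.16 log2. Hipk2 was the 1 gene called higher, against 0.893% of all genes, among the 13 measured HIPK kinases and partners, a list that also holds Trp53, Mdm2, Daxx and the corepressor gene Ctbp1.

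Serpine2 encodes protease nexin-1, a secreted inhibitor of thrombin, urokinase and plasmin. It had 126, 116 and 121 CPM in Pro-BMPs, against 68.1, 70.3 and 78.7 CPM in DN-GMPs and 49.6, 38.7 and 46.7 CPM in Pre-BMPs. The 3 populations did not overlap, and the order was Pro-BMPs, DN-GMPs, Pre-BMPs from high to low. The difference from the midpoint was 1.09 ± 0.13 (SE) log2 with an adjusted p of 0.00157 in limma. The calls of Hipk2 and Serpine2 held under every alternative tried. In basophils Serpine2 stood at 156 to 222 CPM, again above Pro-BMPs. Among 16 measured serpins and other protease inhibitors, 3 were called higher and none lower, against 0.893% and 0.501% of all genes: Serpine2, Serpinb1a and Slpi. Serpinb1a, an inhibitor of neutrophil serine proteases, averaged 586 CPM in Pro-BMPs, 559 CPM in DN-GMPs and 230 CPM in Pre-BMPs, and Slpi, another such inhibitor, was higher in DN-GMPs than in Pro-BMPs.

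The sequences just upstream of these 3 genes are shown because these are the given markers of Pro-BMPs; the levels of the 3 differ otherwise, as in basophils. They are the 250 bases before the most upstream start in the RefSeq table of GRCm38.p6, 5′ to 3′ on the gene's own strand, which is the minus strand for all 3. They run over chrX:152769487-152769736 for Shroom2, chr6:38876191-38876440 for Hipk2 and chr1:79858666-79858915 for Serpine2. The Serpine2 stretch lies within the bounds of the gene in GENCODE M21, which has a start farther upstream. Capitals mark every match to the 6 motifs searched on both strands, and all matches shown are to the GC box GGGCGG or its reverse complement CCGCCC, some of them overlapping.
Shroom2: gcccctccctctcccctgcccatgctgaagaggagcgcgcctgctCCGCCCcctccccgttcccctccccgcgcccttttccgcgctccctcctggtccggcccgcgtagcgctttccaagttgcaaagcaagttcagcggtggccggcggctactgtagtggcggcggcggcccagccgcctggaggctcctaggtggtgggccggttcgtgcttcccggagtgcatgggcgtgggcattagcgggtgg
Hipk2: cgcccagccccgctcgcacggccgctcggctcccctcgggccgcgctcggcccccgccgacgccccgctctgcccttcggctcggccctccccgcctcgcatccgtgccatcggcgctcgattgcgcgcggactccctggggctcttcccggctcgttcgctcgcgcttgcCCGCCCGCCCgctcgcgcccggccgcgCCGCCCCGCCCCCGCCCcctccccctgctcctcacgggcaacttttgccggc
Serpine2: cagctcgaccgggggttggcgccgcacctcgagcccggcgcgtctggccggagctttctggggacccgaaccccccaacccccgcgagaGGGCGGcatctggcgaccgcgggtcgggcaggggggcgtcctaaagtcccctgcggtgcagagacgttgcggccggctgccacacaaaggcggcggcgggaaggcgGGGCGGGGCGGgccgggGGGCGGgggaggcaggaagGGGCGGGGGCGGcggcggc
The GC content of these stretches was 71.2% for Shroom2, 80.8% for Hipk2 and 78.8% for Serpine2, against a median of 59.6% over the 9782 tested genes with an entry. The 3 were not typical of the genes outside both neighbours, whose medians were 60% for the 34 higher and 60.8% for the 26 lower genes found. The GC box was in 58.8% of those 9782 stretches, in 20 of the 34 stretches found for the higher genes (58.8%) and in 16 of the 26 found for the lower genes (61.5%). The letters AGATAA, read by GATA factors, were in 6.17% of tested genes and in 2 of 34 higher and 2 of 26 lower genes. TGTGGT, read by RUNX factors, was in 11% of tested genes and in 3 higher and 1 lower genes, and CCGGAA, read by ETS factors, in 23.3%, with 5 higher and 3 lower genes. TGANTCA, read by AP-1, was in 4.22% of tested genes, with 3 of 34 higher and 4 of 26 lower genes. TTGCGCAA, read by C/EBP factors, was in 0.276% and in none of the 34 and 26. These matches are letters in a window and carry no test.

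Ranked by the distance of the Pro-BMP mean from the nearer neighbour, among genes of at least 1 CPM in Pro-BMPs, Shroom2 was followed by H2-Aa, ENSMUSG00000103734, 1700001O22Rik, Slc7a11, Xlr3a, Grb14, Gm14085, Bdh1, Hipk2, Il17rb and Gca. H2-Aa encodes the alpha chain of the MHC class II molecule I-A, which presents peptides to T cells. It had 0.482, 1.53 and 1.40 CPM in Pro-BMPs and 0 in all 9 libraries of the other populations. That made it at least 17.1-fold higher than in DN-GMPs and at least 19.4-fold higher than in Pre-BMPs, with a difference of 6.62 ± 0.98 (SE) log2 from the midpoint and an adjusted p of 0.00711 in limma. That log2 value depends on the 0.5 read added to counts of 0, and it was 3.44 log2 with 5 reads added. H2-Aa and 1700001O22Rik, like Shroom2, had at most 1 read outside Pro-BMPs. They could be listed only through reads in all 3 Pro-BMP libraries, so agreement among these 3 is no added support. H2-Aa lost the call without Pro-BMP replicate 2 (adjusted p 0.0519) and on the CPM scale (0.0696). None of the other 6 measured genes of class II presentation passed the test, against 1.39% of all genes that did. H2-Ab1, the beta chain partner of H2-Aa, had 29.8 to 34.1 CPM in Pro-BMPs, against 13.3 to 20.8 CPM in DN-GMPs and 33.7 to 43.7 CPM in Pre-BMPs. Cd74, the invariant chain gene that B cells and dendritic cells express strongly, was at 0.65, 0.69 and 0 CPM in Pro-BMPs, and the B cell gene Cd79a at 0, 0 and 0.427 CPM. The lymphoid gene Rag2 went the other way and was above all 6 neighbour libraries, by 4.97 log2 from the midpoint. Its adjusted p was 0.242 in limma and 0.0353 with read-depth weights. The part of lymphoid or dendritic cells in the H2-Aa result was not tested.

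Among the better measured genes of that ranking, Gm14085, a near copy of the nucleoside transporter gene Slc28a2, had 28.2, 40.3 and 30.2 CPM in Pro-BMPs. It had 9.72, 20.5 and 8.59 CPM in DN-GMPs and 3.27, 3.51 and 2.62 CPM in Pre-BMPs, and 3.15 to 3.94 CPM in basophils. No Pro-BMP library overlapped the neighbours, and the difference from the midpoint was 2.41 ± 0.31 (SE) log2 with an adjusted p of 0.00288 in limma. Reads of such near copies may be split in counting. Gca, which encodes the calcium-binding protein grancalcin of neutrophils and macrophages, had 37.2, 45.7 and 32.7 CPM in Pro-BMPs. Its levels were 20.3, 24.5 and 12.1 CPM in DN-GMPs and 6.22, 4.22 and 3.31 CPM in Pre-BMPs, below every Pro-BMP library, and the difference was 2.09 ± 0.31 (SE) log2 with an adjusted p of 0.0074 in limma. Gca and the opposite-strand gene Kcnh7 overlap over 20.4% of the exon bases of Gca, and the libraries do not keep strand.

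Il17rb encodes a chain of the receptor for interleukin-25, a cytokine of type 2 immunity. It had 43.1, 45.6 and 39.8 CPM in Pro-BMPs, against 4.78, 14.4 and 19.0 CPM in DN-GMPs and 18.7, 18.4 and 16.8 CPM in Pre-BMPs. DN-GMPs spread over a wide range that held all Pre-BMP libraries, and no neighbour reached a Pro-BMP library. Basophils had 31.3 to 37.1 CPM. The difference was 1.61 ± 0.35 (SE) log2 with an adjusted p of 0.0477 in limma, just inside the threshold, and it ran from 0.00413 to 0.18 when single libraries were left out.

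Grb14 and Bdh1 were detected in Pro-BMPs and DN-GMPs and had no read in Pre-BMPs. Grb14, an adaptor that binds the insulin receptor, had 4.92, 5.67 and 2.56 CPM in Pro-BMPs, against 0.0637, 0.906 and 1.17 CPM in DN-GMPs. Its level in Pro-BMPs was at least 74.8-fold that in Pre-BMPs. Bdh1, a mitochondrial enzyme of ketone body use, had 3.00, 5.63 and 2.34 CPM in Pro-BMPs and 1.13, 1.91 and 1.07 CPM in DN-GMPs, and its Pro-BMP level exceeded that of Pre-BMPs at least 62.3-fold. Their adjusted p-values in limma were 0.0113 and 0.0296, but neither passed against DN-GMPs alone (0.206 and 0.667). Slc7a11, the cystine and glutamate exchanger that feeds glutathione synthesis, had 3.27, 2.37 and 1.69 CPM in Pro-BMPs, against 0.144 to 0.348 CPM in DN-GMPs and 0.0813 to 0.249 CPM in Pre-BMPs. It was higher by 3.75 ± 0.73 (SE) log2 with an adjusted p of 0.0293 in limma. Xlr3a, from an X-linked family with near copies so that its counts are uncertain, averaged 1.72 CPM in Pro-BMPs, 0.00708 CPM in DN-GMPs and 0.226 CPM in Pre-BMPs. 1700001O22Rik and ENSMUSG00000103734 averaged 1.10 and 1.04 CPM in Pro-BMPs, with at most 1 read in any DN-GMP or Pre-BMP library. In basophils ENSMUSG00000103734 had 0, 0.139 and 1.57 CPM. It lies within the bounds of Cers6 on the same strand, without shared exon bases. Cers6 was also called and above both neighbours, so the 2 genes are not clearly separate. Slc7a11, Xlr3a, Bdh1, Il17rb and ENSMUSG00000103734 each lost the call when single libraries were left out in 6 to 9 of the 9 fits. Grb14 lost it in 2 of them, without Pro-BMP replicate 1 or 2, and 1700001O22Rik in 1, without Pro-BMP replicate 1.

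**Figure D2:**
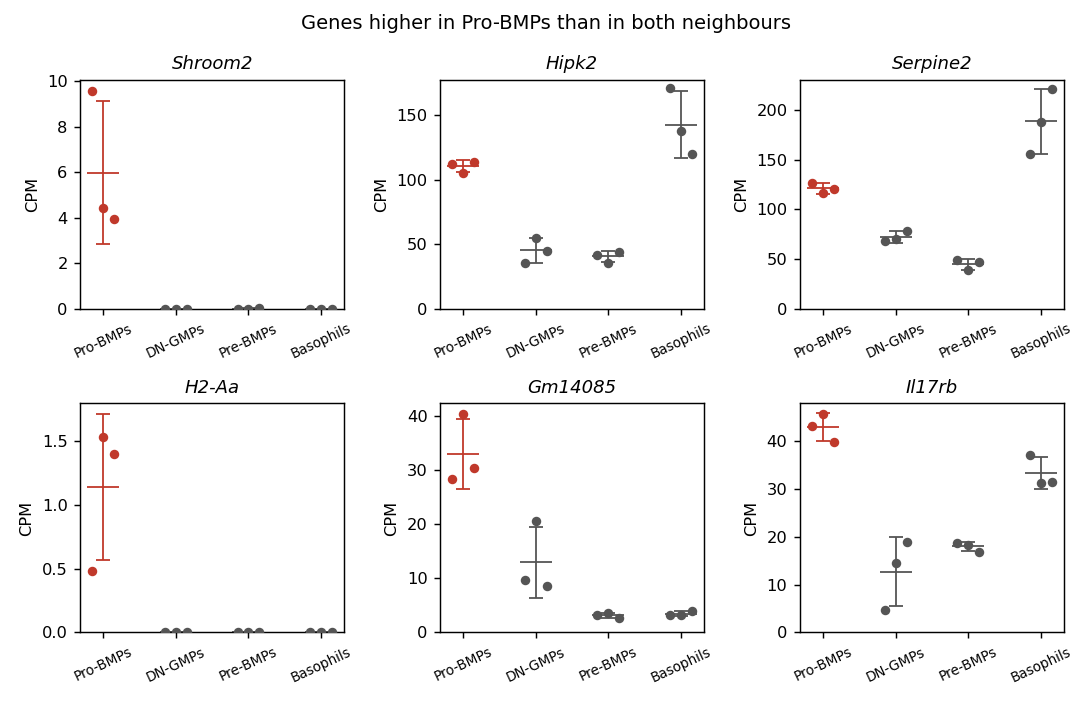
Levels in CPM (vertical axes, linear, from 0) of 6 genes higher in Pro-BMPs than in both neighbours, by population and library; points are libraries, and bars show the mean and SD of 3. All Pro-BMP points (red) are above all DN-GMP and Pre-BMP points, and basophils are at 0 for Shroom2 and H2-Aa and above Pro-BMPs for Hipk2 and Serpine2.

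Of the 41 higher genes, 33 had DN-GMPs as the nearer neighbour and 8 had Pre-BMPs. The distance to the nearer neighbour was at least 1 log2 in 14 and under 0.5 log2 in 19, so for many the excess over one neighbour was small. In the single comparisons, which share the Pro-BMP libraries with the midpoint, 37 of the 41 passed against Pre-BMPs (683 genes higher there, 4.69% of those tested), 15 against DN-GMPs (291 genes, 2%) and 11 against both. Several of the smaller distances were tightly measured, and these genes are named after their values were seen. Lta4h, the enzyme that makes leukotriene B4, had 1131, 1242 and 1131 CPM in Pro-BMPs, against 953, 1029 and 1077 CPM in DN-GMPs and 321 to 353 CPM in Pre-BMPs. Its difference from the midpoint, 0.98 ± 0.07 (SE) log2, had the smallest adjusted p of the 79 genes (5.3e-05 in limma), while its distance from DN-GMPs was 0.20 log2.

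Other genes chosen after their values were seen differed in which neighbour they stood apart from. 1700123O20Rik averaged 156 CPM in Pro-BMPs, 76.7 CPM in DN-GMPs and 77.3 CPM in Pre-BMPs, with differences of 1.03 and 1.02 log2 from each. Arsb, the lysosomal arylsulfatase B, averaged 142 CPM in Pro-BMPs, 71.0 CPM in DN-GMPs and 65.9 CPM in Pre-BMPs. Overlapping genes cover 23.9% and 39.9% of the exon bases of these 2 genes, which makes their counts uncertain. Stt3b, a subunit of the enzyme that adds N-glycans to proteins, averaged 418 CPM in Pro-BMPs, 280 CPM in DN-GMPs and 277 CPM in Pre-BMPs. Atp6ap2, an accessory subunit of the vacuolar proton pump, averaged 440 CPM in Pro-BMPs, 310 CPM in DN-GMPs and 260 CPM in Pre-BMPs. Dtnbp1, which encodes dysbindin of the lysosome-related organelle complex BLOC-1, averaged 189 CPM in Pro-BMPs, 110 CPM in DN-GMPs and 121 CPM in Pre-BMPs. Perp, a p53 target of cell junctions, had 19.1, 23.9 and 23.5 CPM in Pro-BMPs, 1.80, 2.41 and 3.50 CPM in DN-GMPs and 16.9, 15.4 and 15.1 CPM in Pre-BMPs, so nearly all of its difference was on the DN-GMP side. Cldn15, a claudin of tight junctions, and Gatm, the first enzyme of creatine synthesis, were the opposite case. Cldn15 averaged 127 CPM in Pro-BMPs, 106 CPM in DN-GMPs and 2.97 CPM in Pre-BMPs, and Gatm 375 CPM in Pro-BMPs, 300 CPM in DN-GMPs and 37.0 CPM in Pre-BMPs.

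The most distant lower gene was Tmem268, which encodes a membrane protein. It had no read in any Pro-BMP library, against 10.4, 17.9 and 22.8 CPM in DN-GMPs and 4.11, 5.67 and 3.68 CPM in Pre-BMPs. Basophils had 3.10, 0 and 0.784 CPM. Its level in Pro-BMPs was at least 286-fold lower than in DN-GMPs and at least 75.3-fold lower than in Pre-BMPs, counting 3 reads per library. The adjusted p was 0.00486 in limma, and the call held under every alternative tried. Behind it, among genes of at least 1 CPM in both neighbours, came 4732440D04Rik, Arhgef10l, Tpm4, Cyp4f18, Zc2hc1a, Ms4a4b, Pf4, Ifi209, Ccr2, Rasa4 and Bcl2.

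Ccr2 encodes the receptor for the chemokine CCL2, which draws monocytes out of the bone marrow. It had 1.24, 3.00 and 1.90 CPM in Pro-BMPs, against 91.8, 94.3 and 76.4 CPM in DN-GMPs and 6.16, 5.46 and 6.14 CPM in Pre-BMPs. Pro-BMPs were below every library of both neighbours, and basophils were above all of them at 397, 288 and 221 CPM. The difference from the midpoint was -3.56 ± 0.27 (SE) log2 with an adjusted p of 0.000106 in limma. The call was lost on the CPM scale (adjusted p 0.626) and with read-depth weights (0.084). Against Pre-BMPs alone the difference was -1.62 log2 with an adjusted p of 0.00775. The 10 measured monocyte and dendritic cell genes summed to 478 to 599 CPM in Pro-BMP libraries, 2280 to 2650 CPM in DN-GMPs and 289 to 347 CPM in Pre-BMPs, with none of them at 0 in any of these populations. Ccr2 was the 1 of them called lower, against 0.501% of all genes. Ly6c2, which marks classical monocytes and their precursors, was the 1 called higher, against 0.893%. Ly6c2 lay between, with 289 to 359 CPM in Pro-BMPs, 842 to 999 CPM in DN-GMPs and 9.48 to 23.4 CPM in Pre-BMPs. The part of monocyte-side cells in the Ccr2 result was not tested.

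Tpm4, which encodes an actin-binding tropomyosin, had 2.89, 0.884 and 2.92 CPM in Pro-BMPs. It had 44.3, 52.2 and 50.9 CPM in DN-GMPs and 16.7, 10.4 and 6.36 CPM in Pre-BMPs, and 346 to 502 CPM in basophils. Pro-BMPs were the lowest of the 4 populations with no overlap, and the difference from the midpoint was -3.52 ± 0.39 (SE) log2 with an adjusted p of 0.00147 in limma. The call was lost on the CPM scale (0.787). Ifi209, of the interferon-inducible p200 family whose members are near copies, had 2.83, 2.63 and 5.93 CPM in Pro-BMPs, against 63.0, 85.9 and 58.2 CPM in DN-GMPs and 11.5, 11.5 and 14.7 CPM in Pre-BMPs. All Pro-BMP libraries were lower than the neighbours, by -3.04 ± 0.32 (SE) log2 from the midpoint with an adjusted p of 0.000931 in limma, and basophils were at 1.27 to 2.10 CPM. Of the 17 measured interferon response genes, which do not include Ifi209, none was called, against 1.39% of all genes.

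Rasa4, a calcium-dependent GTPase-activating protein for Ras, had 11.4, 13 and 14.5 CPM in Pro-BMPs. Its levels were 90.0, 65.6 and 64.9 CPM in DN-GMPs and 31.6, 21.1 and 33.2 CPM in Pre-BMPs, all above Pro-BMPs. The difference from the midpoint was -1.80 ± 0.23 (SE) log2 with an adjusted p of 0.00269 in limma. Bcl2, the gene of the founding anti-apoptotic protein of its family, had 24.5, 29.2 and 39.6 CPM in Pro-BMPs. It had 78.5, 65.9 and 95.9 CPM in DN-GMPs and 70.5, 57.1 and 66.8 CPM in Pre-BMPs, where the neighbours overlapped each other but not Pro-BMPs, and basophils had 46.2 to 62.4 CPM. The difference was -1.23 ± 0.18 (SE) log2 with an adjusted p of 0.00727 in limma. Ifi209, Rasa4, Bcl2 and Tmem268 kept their calls under all alternatives tried.

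The other lower genes of the ranking had low levels in Pro-BMPs. Cyp4f18, a cytochrome P450 that hydroxylates leukotriene B4 in mouse neutrophils, had 1.34, 1.14 and 3.06 CPM in Pro-BMPs, 5.22 to 11.7 CPM in DN-GMPs and 9.68 to 19.6 CPM in Pre-BMPs, and 1050 to 1413 CPM in basophils. Ms4a4b, a membrane protein of the MS4A family known from T cells, averaged 1.03 CPM in Pro-BMPs, 4.34 CPM in DN-GMPs, 4.49 CPM in Pre-BMPs and 45.6 CPM in basophils. Arhgef10l, a guanine nucleotide exchange factor gene, averaged 0.461 CPM in Pro-BMPs, 7.45 CPM in DN-GMPs and 8.69 CPM in Pre-BMPs. These genes had adjusted p-values of 0.00537, 0.00687 and 0.0154 in limma, and all 3 lost the call with read-depth weights and on the CPM scale. Pf4, the platelet factor 4 chemokine, had 2.41, 1.96 and 0.529 CPM in Pro-BMPs, 14.4, 42.2 and 43.3 CPM in DN-GMPs and 2.64, 5.71 and 9.69 CPM in Pre-BMPs, with 0 in basophils. The gap between Pro-BMPs and Pre-BMPs was narrow, and Pf4 did not pass against Pre-BMPs alone (adjusted p 0.144 in limma). Zc2hc1a averaged 2.00 CPM in Pro-BMPs, 8.19 CPM in DN-GMPs and 9.55 CPM in Pre-BMPs. 4732440D04Rik, annotated as antisense to Rb1cc1, averaged 0.0696 CPM in Pro-BMPs, 1.54 CPM in DN-GMPs and 3.94 CPM in Pre-BMPs, and without strand its reads cannot be told from those of Rb1cc1 where they overlap. Both also lost the call with read-depth weights, and Pf4 and Zc2hc1a did so in 7 and 8 of the 9 fits that left out a library.

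**Figure D3:**
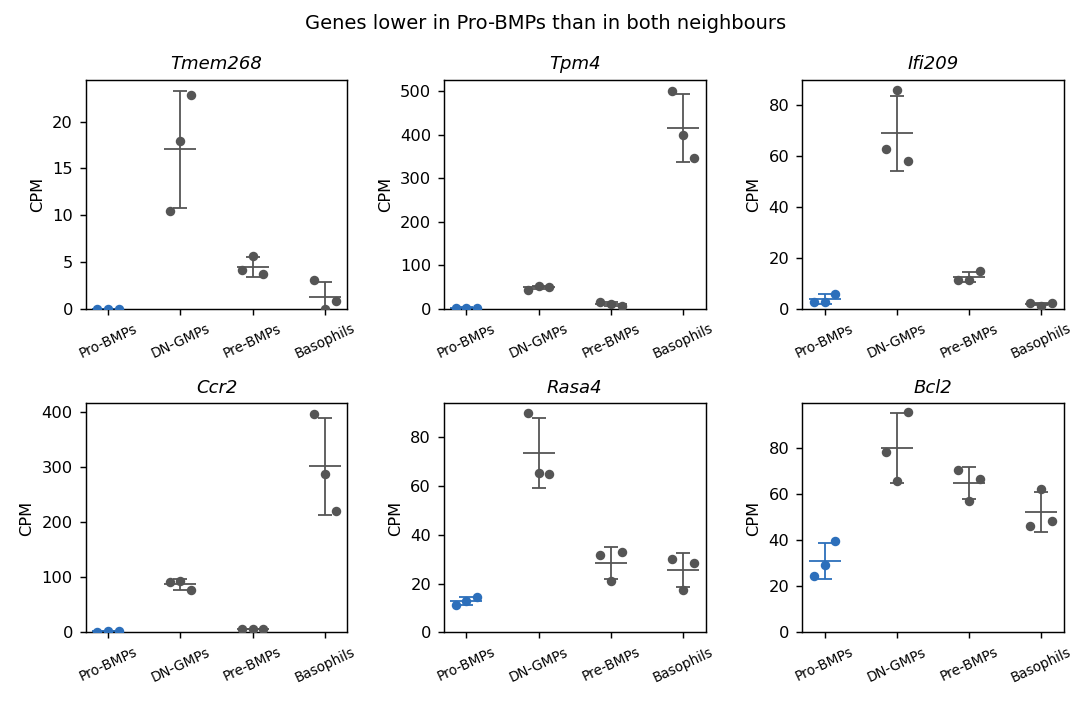
Levels in CPM (vertical axes, linear, from 0) of 6 genes lower in Pro-BMPs than in both neighbours, by population and library; points are libraries, and bars show the mean and SD of 3. All Pro-BMP points (blue) are below all DN-GMP and Pre-BMP points, and Tpm4 and Ccr2 are highest in basophils, with Ccr2 at 221 to 397 CPM there.

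Of the 38 lower genes, 23 had DN-GMPs and 15 had Pre-BMPs as the nearer neighbour, and the distance was at least 1 log2 in 19 and under 0.5 log2 in 8. In the single comparisons, 34 passed against Pre-BMPs (699 genes lower there, 4.8% of those tested), 23 against DN-GMPs (78 genes, 0.536%) and 19 against both. Some abundant genes were among them, named after their values were seen. Anxa2, a calcium-dependent membrane-binding annexin, had 90.3, 84.1 and 89.7 CPM in Pro-BMPs, against 101, 128 and 129 CPM in DN-GMPs and 300.3, 352 and 349 CPM in Pre-BMPs. Its difference of -1.18 ± 0.10 (SE) log2 had an adjusted p of 0.000188 in limma, the gap to DN-GMPs being the small one. Fcer1g, the signalling chain shared by the IgE receptor and several Fc gamma receptors, had 74.7, 72.6 and 108 CPM in Pro-BMPs, against 139, 117 and 111 CPM in DN-GMPs and 232, 203 and 200.3 CPM in Pre-BMPs. It was lower by 0.54 log2 than in DN-GMPs and by 1.34 log2 than in Pre-BMPs, and basophils averaged 1019 CPM. Selplg, the ligand of P-selectin, averaged 171 CPM in Pro-BMPs, 252 CPM in DN-GMPs and 337 CPM in Pre-BMPs. Vim, the intermediate filament vimentin, averaged 170 CPM in Pro-BMPs, 224 CPM in DN-GMPs and 386 CPM in Pre-BMPs.

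**Figure D4:**
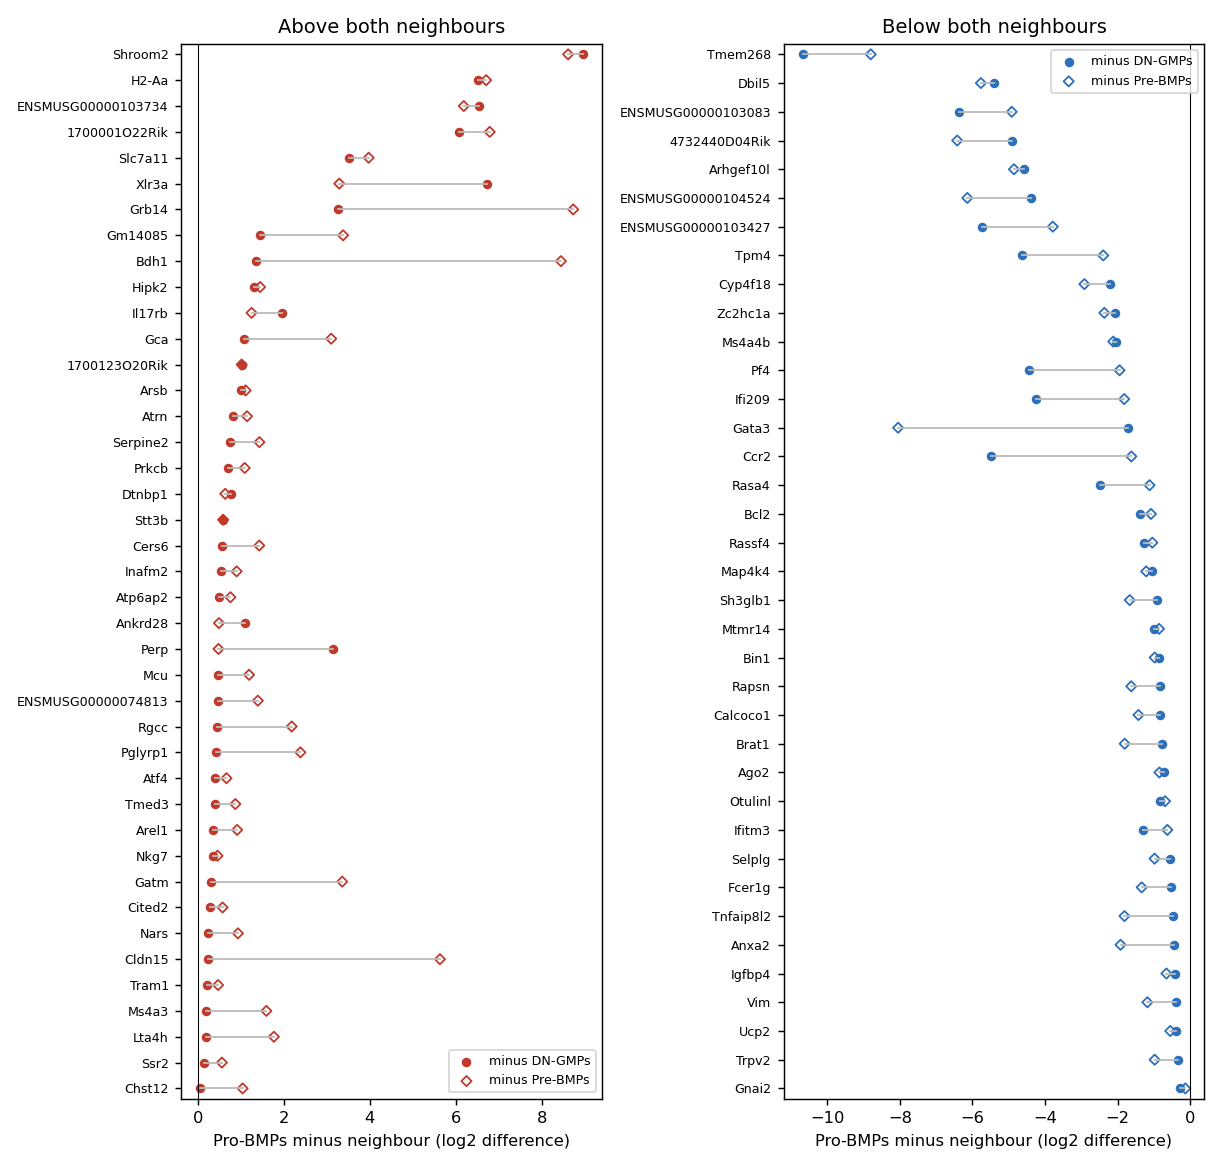
Log2 differences of Pro-BMPs from DN-GMPs (filled circles) and from Pre-BMPs (open diamonds), horizontal axes, for the 41 genes above both neighbours (left) and 37 of the 38 below both (right), 1 gene per row in order of the distance to the nearer neighbour. Both marks of a gene are on the same side of 0 by the way the genes were chosen; Grb14, Bdh1, Cldn15 and Gata3 have the widest spacing between their marks.

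Basophil levels were compared with the 6 neighbour libraries. The genes were chosen by both the Pro-BMP values and these 6 values. A comparison of basophils with either is therefore tilted by that choice. Of the 41 higher genes, all basophil libraries were above all 6 neighbour libraries in 10 and below all of them in 7. Of the 38 lower genes, all basophil libraries were below the 6 in 6 genes and above them in 15. The rest were mixed. The matching shares over all genes tested were not counted, so these numbers only describe the genes. The 8 higher genes whose basophil mean was above the Pro-BMP mean were Hipk2, Arsb, Serpine2, Prkcb, Perp, ENSMUSG00000074813, Pglyrp1 and Chst12. Their excess in Pro-BMPs over the nearer neighbour was 3.91% to 45.6% of the basophil level, with 45.6% for Hipk2 and 25.9% for Serpine2. Fcer1a in Pro-BMPs was at 0.0545% of its basophil level. The part of basophils among the sorted Pro-BMPs in these results was not tested.

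The gene lists showed how much of the marker programmes lay outside both neighbours. Of all genes tested, 0.893% were called higher and 0.501% lower. Of 23 measured basophil genes, 6 were called higher and none lower, and none lay outside, and all 6 averaged higher in Pre-BMPs than in Pro-BMPs. Prss34, the basophil protease, averaged 99.7 CPM in Pro-BMPs, 0.0343 CPM in DN-GMPs and 1117 CPM in Pre-BMPs. Of 12 eosinophil genes, 6 were called higher, none of them outside, and the median of the list was 3.94 log2. The eosinophil granule gene Prg2 averaged 1484 CPM in Pro-BMPs, 3.89 CPM in DN-GMPs and 1827 CPM in Pre-BMPs. Of 18 neutrophil granule and progenitor genes, 11 were called higher and none lower, with a median of 0.90 log2, and Ms4a3 was the 1 both called and outside. Elane, the neutrophil elastase gene, averaged 3988 CPM in Pro-BMPs, 4260 CPM in DN-GMPs and 378 CPM in Pre-BMPs. The list summed to 21000 to 23200 CPM in Pro-BMPs, 22200 to 25700 CPM in DN-GMPs and 6320 to 7500 CPM in Pre-BMPs, so that it overlapped between Pro-BMPs and DN-GMPs. Of 12 mature neutrophil genes none was called.

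Ms4a3, a membrane protein of granulocyte-monocyte progenitors, had 1193, 1275 and 1113 CPM in Pro-BMPs, against 1031, 1071 and 1005 CPM in DN-GMPs and 541, 356 and 318 CPM in Pre-BMPs. Pro-BMPs were just above DN-GMPs in every library, and the difference from the midpoint was 0.90 ± 0.14 (SE) log2 with an adjusted p of 0.0086 in limma, which was lost without Pro-BMP replicate 1 or 2 (up to 0.0557). Nkg7, a granule membrane protein of cytotoxic lymphocytes that is on the lymphoid list, had 853, 962 and 866 CPM in Pro-BMPs, against 638, 770 and 683 CPM in DN-GMPs and 659, 675 and 609 CPM in Pre-BMPs. It was higher by 0.41 ± 0.08 (SE) log2 with an adjusted p of 0.0373 in limma. On that list it was the 1 called gene of 9, against 1.39% of all genes. Nkg7 lost the call in 8 of the 9 fits that left out a library, with adjusted p-values up to 0.18, and with quantile scaling (0.11). Gata3, a factor of T cells and of stem cells, had no read in Pro-BMPs, 0.0425, 0.0412 and 0 CPM in DN-GMPs and 1.5, 3.80 and 3.10 CPM in Pre-BMPs. It counted as outside only because a 0 takes a lower log2 value in a larger library. By CPM alone the lower genes outside were 37 and the total 78.

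Among all genes tested, 1.39% were called in the midpoint contrast, 0.893% higher and 0.501% lower, so short lists would hold few calls. None of the 28 S phase, 26 G2 and M phase and 24 ribosome biogenesis genes was called in it. Neither was any of 18 immediate early and dissociation stress genes. Medians of these lists were 0.0519, -0.0851, 0.201 and 0.00346 log2. All 24 ribosome biogenesis genes were above the midpoint, the lowest by 0.0203 log2. Against Pre-BMPs alone, 7 of them were called higher and none lower, with 4.69% and 4.8% of all genes. S phase had 3 higher and 1 lower calls there, G2 and M phase 4 lower ones, and the stress list 2 higher and 3 lower. Of 33 hematopoietic transcription factors, Gfi1 and Klf1 were called higher and Runx1 lower, and none of these was outside. Gfi1, a repressor needed for granulocytes, averaged 106 CPM in Pro-BMPs, 103 CPM in DN-GMPs and 9.25 CPM in Pre-BMPs. Runx1, a regulator of blood stem and progenitor cells, had 80.2 to 93.2 CPM in Pro-BMPs, 63.3 to 68.0 CPM in DN-GMPs and 214 to 284 CPM in Pre-BMPs. Of the 22 measured actin and cell shape genes Shroom2 alone was called, and Shroom1 had 2.70, 0 and 2.27 CPM in Pro-BMPs, within the range of its neighbours. Among 26 TGF-beta, BMP and Notch genes, 1 was called lower, the receptor gene Tgfbr2, with 24.2 to 27.6 CPM in Pro-BMPs, 22.0 to 32.0 CPM in DN-GMPs and 70.4 to 72.0 CPM in Pre-BMPs. Cdh1 was the 1 called gene of 19 cadherin, catenin and integrin genes.

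**Figure D5:**
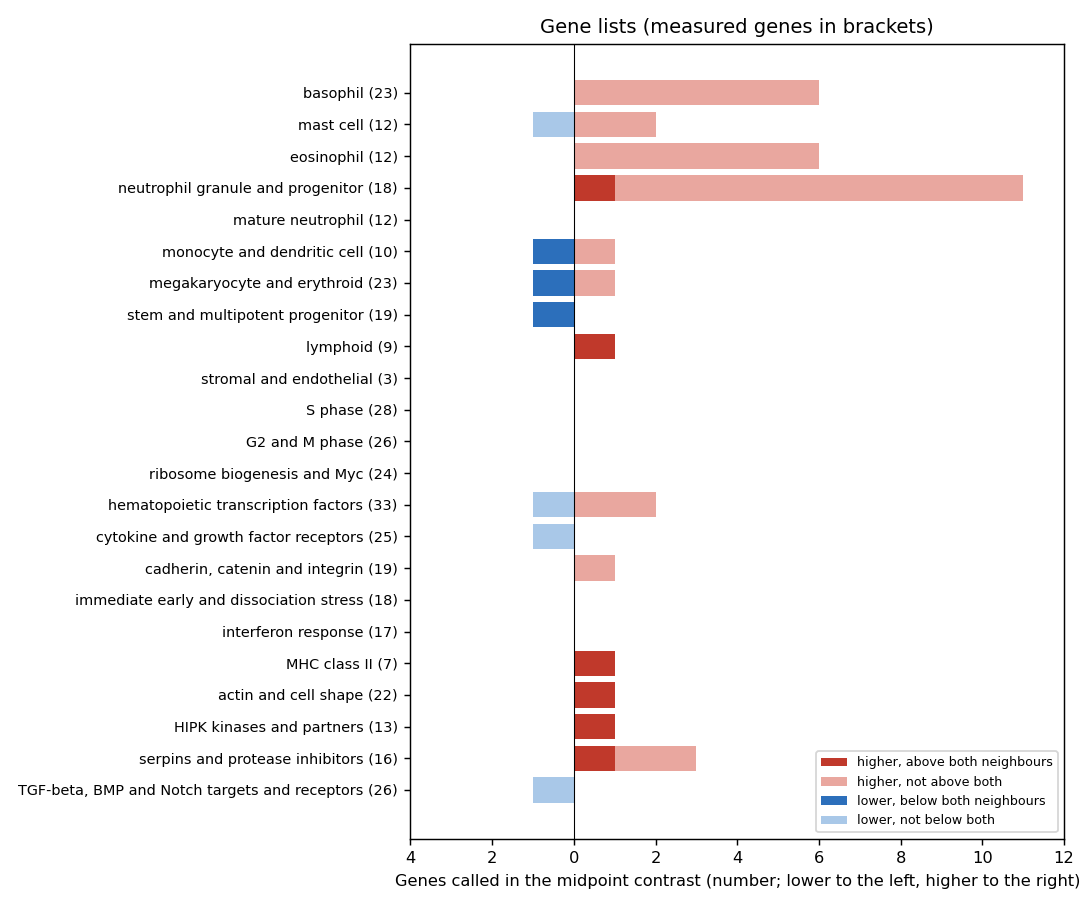
Number of genes called in the midpoint contrast (horizontal axis) in each of 23 gene lists, higher in Pro-BMPs to the right and lower to the left, with measured genes in brackets; dark bars are genes outside both neighbours. The neutrophil granule list has 11 calls of 18 and a single dark one, the basophil and eosinophil lists have 6 each and none dark, and 8 other lists have 1 dark gene each.

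The calls of Cebpe and Myb changed with the libraries in the fit and with the weights. Cebpe, a C/EBP factor of terminal granulocyte maturation, had 90.5, 69.3 and 77.0 CPM in Pro-BMPs, against 23.6, 27.2 and 27.7 CPM in DN-GMPs and 11.5, 9.78 and 15.6 CPM in Pre-BMPs. All Pro-BMP libraries were far above both neighbours, and the difference from the midpoint was 2.14 ± 0.89 (SE) log2. Basophils had 0.139, 0 and 0.577 CPM, where a few reads make a wide spread on the log2 scale. The adjusted p was 0.409 in limma with the basophil libraries in the fit, 0.00123 with the 9 other libraries alone and 0.000101 with read-depth weights. Myb, a factor that keeps progenitors dividing, had 672, 618 and 617 CPM in Pro-BMPs, 424, 499 and 448 CPM in DN-GMPs and 459, 505 and 491 CPM in Pre-BMPs. Its adjusted p of 0.0578 in limma missed the threshold, and was 0.0161 with the 9 libraries alone and 0.00442 with read-depth weights. The fit with these weights kept the basophil libraries, and the reason for the changes was not tested. Cebpe and Myb were singled out after their values were seen. Vcam1, on the stromal and endothelial list, was also above both neighbours, by 2.25 log2 from the midpoint. Its adjusted p was 0.466 in limma, 0.0283 with the 9 libraries alone and 0.00821 with read-depth weights. The lymphoid gene Rag2 was called with these weights (0.0353) but not with the 9 libraries alone (0.104). Of the 342 genes outside but not called, 15 were called with the 9 libraries alone and 37 with read-depth weights.

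The thresholds passed close to several genes. Cited2, a transcriptional coregulator, was just inside with an adjusted p of 0.0494 in limma, and Stk17b, a serine/threonine kinase gene, just outside with 0.0514. On the range, the nearest Pro-BMP and neighbour libraries were 0.0131 log2 apart for Tnfaip8l2 and 0.0143 log2 apart for Arel1, both just outside the neighbours. They overlapped by 0.00504 log2 for Nrm and by 0.00646 log2 for Clic1, which were called lower but not outside.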

How the data were processed

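RNA was sequenced from 4 sorted mouse bone marrow populations with 3 libraries each. Cells went through 2 rounds of sorting and libraries came from the SmartSeq v4 and Nextera XT kits, which do not mark strand, per the labels' protocols. Tools named in the submitters' processing notes are Trimmomatic, STAR, deepTools and HTSeq. Their genome build is not given in the sources used here. The authors deposited log2 values, which by their steps are log2 CPM of reads plus 0.5, relative to a scaled library size. The reads recovered from them were within 0.001 of whole for 100% of values. The 3 rows of reads on no gene (no-feature share 6.65% to 12.6%) were left out.

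limma 3.58.1 in R 4.3.3 was run on the deposited values of all 14560 genes and 12 libraries, with 1 mean per population, moderated variances with a trend and two-sided tests. Genes with a p under 0.05 after Benjamini-Hochberg adjustment across the table are called. The script was tested on simulated data. No filter was applied beyond that of the deposited genes. These appear to have at least 10 reads in 3 libraries already, so the 10-read filter named below repeats the main fit and is no separate check. The members and lists were chosen with earlier results of these data known. Named genes are the first 12 in each direction that were called and outside, ranked by distance from the nearer neighbour, with at least 1 CPM in Pro-BMPs (higher) or in both neighbours (lower). The markers, the sorting genes and list genes called and outside were added. The alternatives were median-ratio and quantile scaling, filters at 1 CPM and 10 reads, 5 reads added, the 9 libraries alone, read-depth (voom) weights, the CPM scale, a replicate block, each library left out, and, chosen after seeing the data, the range on CPM. Sequences are from RefSeq (GRCm38.p6; 34 of 41 higher and 26 of 38 lower genes matched) and gene overlaps from GENCODE M21, in which all 79 gene IDs were found. The values of 1 of the 79 genes are not reported here.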

Additional observations from a re-analysis of the deposited data

How the results depend on the processing

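The counts moved when single libraries were left out, with voom weights and on the CPM scale. With single libraries left out, called genes ran from 89 to 223, higher calls from 56 to 152, lower calls from 33 to 73, calls outside both neighbours from 46 to 102, higher ones among them from 18 to 59 and lower ones from 28 to 48. With the 9 libraries alone, lower calls came to 48, and with voom weights to 42. Outside both neighbours, voom weights gave 78 higher and 22 lower genes and the CPM scale 77 higher and 17 lower, against 41 and 38. The share of higher genes among calls outside was 78% with voom weights and 81.9% on the CPM scale, against 51.9%, and among all calls 82.3% with voom weights and 75% with the 9 libraries, against 64%. The cause was not tested. Of the 79 genes, 63 were shared with the voom calls and 50 with those on the CPM scale. Scaling by median ratios or quantiles gave 81 and 95 genes, sharing 77 and 67.

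Cdh1 changed sign on the CPM scale, at -30.6 CPM. Over 36 named genes and 679 values under alternatives, 578 kept direction and side of the threshold, 98 kept direction and lost the call, and 2 (Fcer1a) gained one. No label says that a library number marks a shared mouse, and the correlations of the deviations of same-numbered libraries over 8128 genes ran from -0.123 to 0.127. Those of Pro-BMPs with Pre-BMPs were positive in all 3 replicates (0.0486, 0.108 and 0.127), and those of DN-GMPs with the others were mixed in sign. With a replicate block, 159 genes were called and 58 lay outside, 56 of them shared. Depth limits genes near 1 CPM in Pro-BMPs: 8 higher and 17 lower genes were under 10 CPM there.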
